A study of Mus musculus with 4 samples.

Results

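The genes that encode the cytosolic translation initiation factors (eIF) and elongation factors (eEF) were compared between thymospheres of adult and embryonic mice. Members were chosen by symbol alone. They are all genes whose symbol begins with Eif followed by a digit from 1 to 6, or with Eef followed by 1 or 2, without the interferon-induced kinase gene Eif2ak2 and the Y-linked gene Eif2s3y. Of 84 such symbols in the mouse annotation, 67 were matched to the array through the RefSeq accession of a probe, out of 21154 matched genes in all, and these 67 genes had 94 of the 55681 probes. Of the 17 others, 14 are pseudogenes.

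Thymospheres are free-floating aggregates grown from dissociated thymus in dishes that cells do not attach to. Adult spheres came from thymus of C57Bl6/N mice aged 5 to 6 weeks and embryonic spheres from C57Bl6/N thymus at embryonic day 14.5, with 2 samples in each group, and the labels name no genetic change in either. All 4 cultures shared a medium with B27 supplement, hydrocortisone, insulin, EGF and bFGF, received fresh medium on day 5 and were lysed on day 7. The 4 samples were read on 4 arrays of 1 slide, with a single dye. The labels give no animal numbers and do not say which arrays are biological and which technical replicates. A p-value here therefore reflects how far apart these arrays lay, and that spread may be technical. With 2 arrays against 2, an exact two-sided permutation test of a single value cannot go below p = 0.333.

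Translation of most messenger RNAs starts when eIF4E binds the cap, the scaffold eIF4G joins it to the helicase eIF4A, and eIF3 brings in the small ribosomal subunit that carries eIF2, GTP and the initiator transfer RNA. Scanning to the start codon is governed by eIF1, eIF1A and eIF5, and eIF5B joins the large subunit. Elongation then runs on eEF1A, which delivers aminoacyl-transfer RNA, and on eEF2, which moves the ribosome along. Cells restrain initiation through kinases that phosphorylate the alpha subunit of eIF2 and through proteins that sequester eIF4E, and restrain elongation through eEF2 kinase.

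Adult spheres had less signal than embryonic spheres for nearly all translation factor genes on the scale used here, and the middle gene of the array was lower as well. In whole spheres, fewer cells of a type and less RNA per cell cannot be told apart. Signals are given as normalised log2 signal, the log2 of a probe's processed signal over the 75th percentile of its array, and differences are adult minus embryonic on that scale. Of 67 genes, 65 passed the filter, which required signal well above background on both adult or on both embryonic arrays, and 62 of them had such signal on every array. At an adjusted p under 0.05 in limma, 32 of the 65 were lower in adult spheres and 1, dim in embryonic spheres, was higher, where 36.1% of all 13667 genes tested were called lower, 17.5% higher and 53.6% either way. Of the 62 members bright on every array 31 were lower and none was higher by limma (0 had an unadjusted p under 0.05 and a positive difference), beside 43.8% and 2.36% of all 9602 such genes. The share called lower was thus near the background.

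Per array, the median over the tested members was 2.01 and 1.94 in adult spheres, against 2.88 and 2.96 in embryonic spheres. Over the 65 genes the median log2 difference was -0.98, beside -0.79 for all genes tested, and over the 62 bright members it was -0.99, beside -0.97 for all bright genes. The quartiles of those 62 were -1.28 and -0.74 and those of all bright genes -1.38 and -0.49. Both adult arrays lay below both embryonic arrays for 56 members, where 60.8% of all genes tested did so, and above them for 4, where 23.3% did. The groups overlapped for the other 5.

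The calls depended on the scaling, while the members' median stayed below 0 in all 17 alternatives. The median of all genes tested did so too, from -1.98 to -0.14, so this sign is not particular to the members. After arrays were centred on their tested genes, the median was -0.33 (all genes -0.14) and 4 members were lower and 2 higher in adult spheres, where 7.65% and 20.3% of all genes were called, and 13 of the 65 differences were positive. The 4 were Eif4a2, Eif2a, Eif4enif1 and Eif3a, and the 2 were Eif4e1b and Eif4a3. Against all genes the share of members called lower also turned, from above to below, on the authors' deposited values, with 13.8% of members and 26.0% of all genes. Among the 62 bright members 3 were lower and 1 was higher after centring, beside 7.68% and 4.78% of all bright genes. With either adult array left out, limma called no gene on the array. The members' median was then -1.12 without adult array 1 and -0.79 without adult array 2, beside -0.89 and -0.34 for all genes tested. A difference of a bright member below can be read against the -0.97 of all bright genes, and that of another member against -0.79. A member near its value moved no more than the middle gene of that set. Counts of calls below can be read against 36.1% of all genes tested, or 43.8% of all bright genes, called lower.

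**Figure D1:**
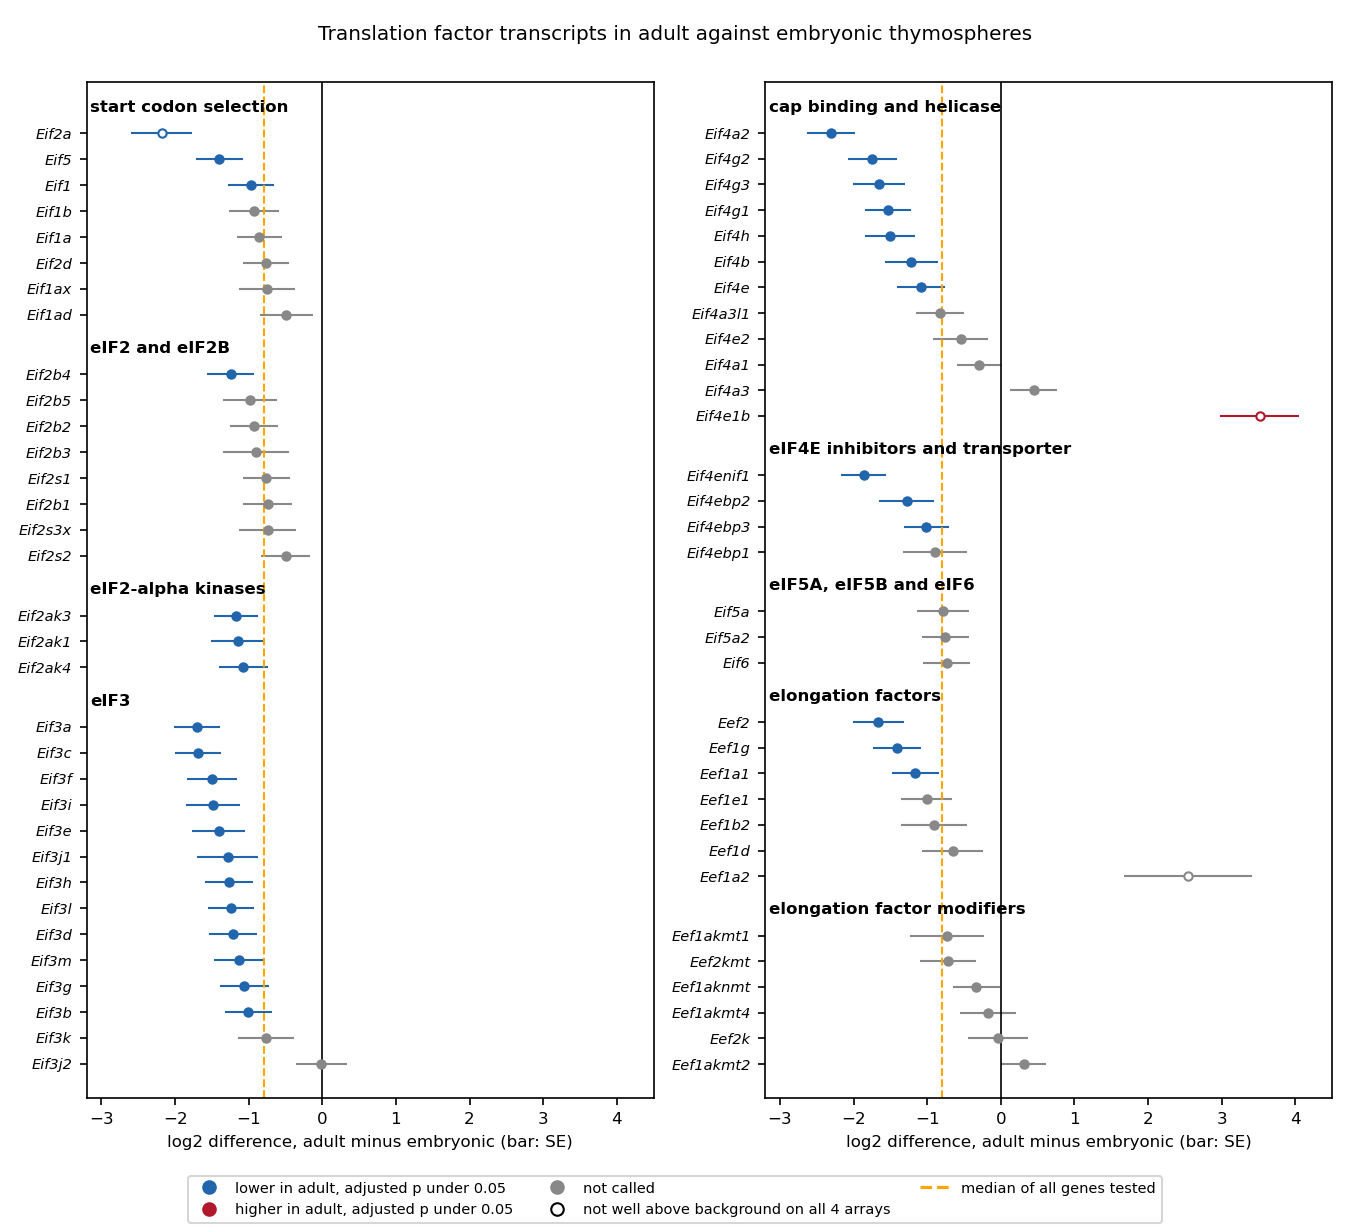
Log2 difference, adult minus embryonic, of the 65 tested translation factor genes by role, with bars for the standard error. Blue points were called lower and the red point higher in adult spheres, and open points were not well above background on all 4 arrays. The dashed line marks the median of all genes tested at -0.79, where that of all bright genes was -0.97.

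A list chosen by ribosomal protein symbols is drawn beside the 62 bright members in the cumulative plot. Most of its genes encode proteins of the ribosome on which these factors work, but Rps6kc1, Rps19bp1 and Rps23rg1 do not. The quartiles of this list, -1.16 and -0.92, enclosed a narrower range than those of the members, and no test was made on these spreads.

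**Figure D2:**
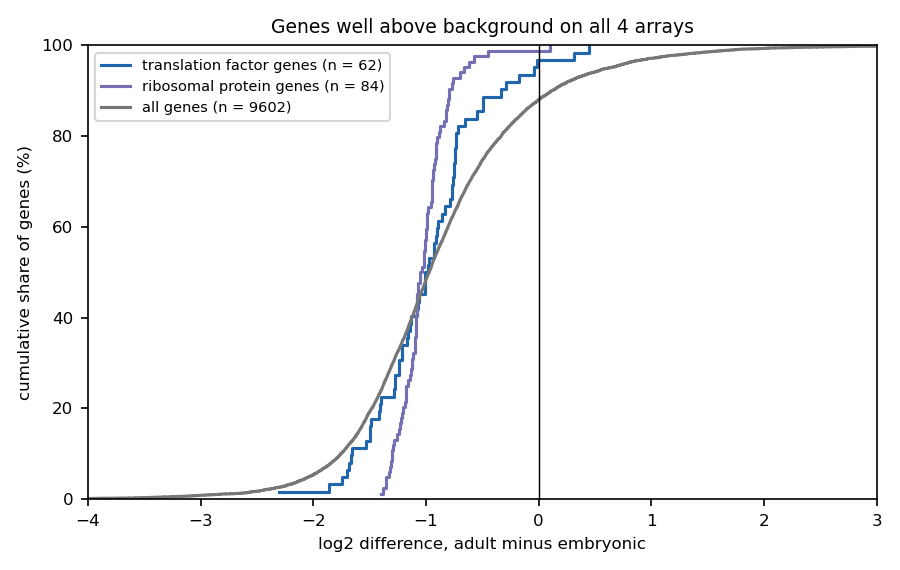
Cumulative share of genes by log2 difference, adult minus embryonic, for genes bright on every array. The 62 translation factor genes and the 84 genes with ribosomal protein symbols cross the line of all 9602 genes near its middle, with medians of -0.99, -1.04 and -0.97.

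The cap-binding and helicase group held the member with the most negative difference, Eif4a2. Of 12 tested members 7 were lower in adult spheres and 1 was called higher, beside 36.1% and 17.5% of all genes tested. The 1 called higher was Eif4e1b, whose embryonic signal was dim. Eif4a2, one of the 2 cytoplasmic forms of the RNA helicase eIF4A, had 2.54 and 2.42 in adult spheres, against 4.58 and 5.00 in embryonic spheres. The 4 values lay close within each group and the groups were far apart, with a log2 difference of -2.31 (SE 0.32, adjusted p = 0.00871), and it remained lower after centring on the tested genes (-1.65, adjusted p = 0.0161). A second Eif4a2 probe gave -2.22. Eif4a1, the other cytoplasmic form, had 5.44 and 5.31 in adult spheres, against 5.70 and 5.65 in embryonic spheres. Its groups did not overlap, but the difference of -0.29 (adjusted p = 0.423) was not called, and it was 0.37 after centring.

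The ratio of the 2 helicase transcripts within an array does not depend on how arrays are scaled to each other by a constant. The log2 ratio of the Eif4a2 probe to the Eif4a1 probe was -2.90 and -2.89 in adult spheres, against -1.12 and -0.65 in embryonic spheres. It was thus lower by 2.01 in adult spheres, without overlap, and lay between -2.25 and -1.74 in the 17 alternatives tried. This ratio shows unequal change of the 2 transcripts and says nothing of their amounts relative to each other, since probes differ in brightness. Eif4a3, the related helicase of the exon junction complex, had 2.15 and 2.18 in adult spheres, against 1.88 and 1.56 in embryonic spheres. Adult values were slightly above embryonic ones (difference 0.44, SE 0.31, adjusted p = 0.257), and the gene was called higher after centring (1.1, adjusted p = 0.0499). The probe of its retrocopy Eif4a3l1, a gene of close sequence whose probe may also bind Eif4a3 transcripts, gave -0.83 (adjusted p = 0.0769).

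All 3 scaffold genes of the eIF4G family were lower in adult spheres, beside 43.8% of all bright genes. Eif4g2, whose protein lacks the eIF4E-binding site and supports cap-independent initiation, had 1.0 and 0.97 in adult spheres, against 2.49 and 2.96 in embryonic spheres (difference -1.74, SE 0.33, adjusted p = 0.0129). Eif4g1, the main scaffold, had 2.96 and 3.26 in adult spheres, against 4.56 and 4.72 in embryonic spheres (-1.53, SE 0.31, adjusted p = 0.015). Eif4g3 had a difference of -1.65 (SE 0.35, adjusted p = 0.0163). In none of the 3 did the groups overlap, where 60.8% of all genes tested had both adult arrays below both embryonic ones. None of the 3 was called after centring (adjusted p from 0.056 to 0.102).

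The helicase cofactor genes Eif4h (-1.5, SE 0.34, adjusted p = 0.0186) and Eif4b (-1.21, SE 0.36, adjusted p = 0.0353) were lower in adult spheres as well. Eif4e, the cap-binding protein itself, had 1.09 and 0.80 in adult spheres, against 2.19 and 1.87 in embryonic spheres (-1.08, SE 0.32, adjusted p = 0.0375), a call that a second probe did not share (-0.59, adjusted p = 0.215 over all named probes). Its relative Eif4e2, which binds the cap and represses translation, was not called (-0.54, adjusted p = 0.248). Eif4e3 was not tested, as its probe was well above background on 1 of the 4 arrays.

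**Figure D3:**
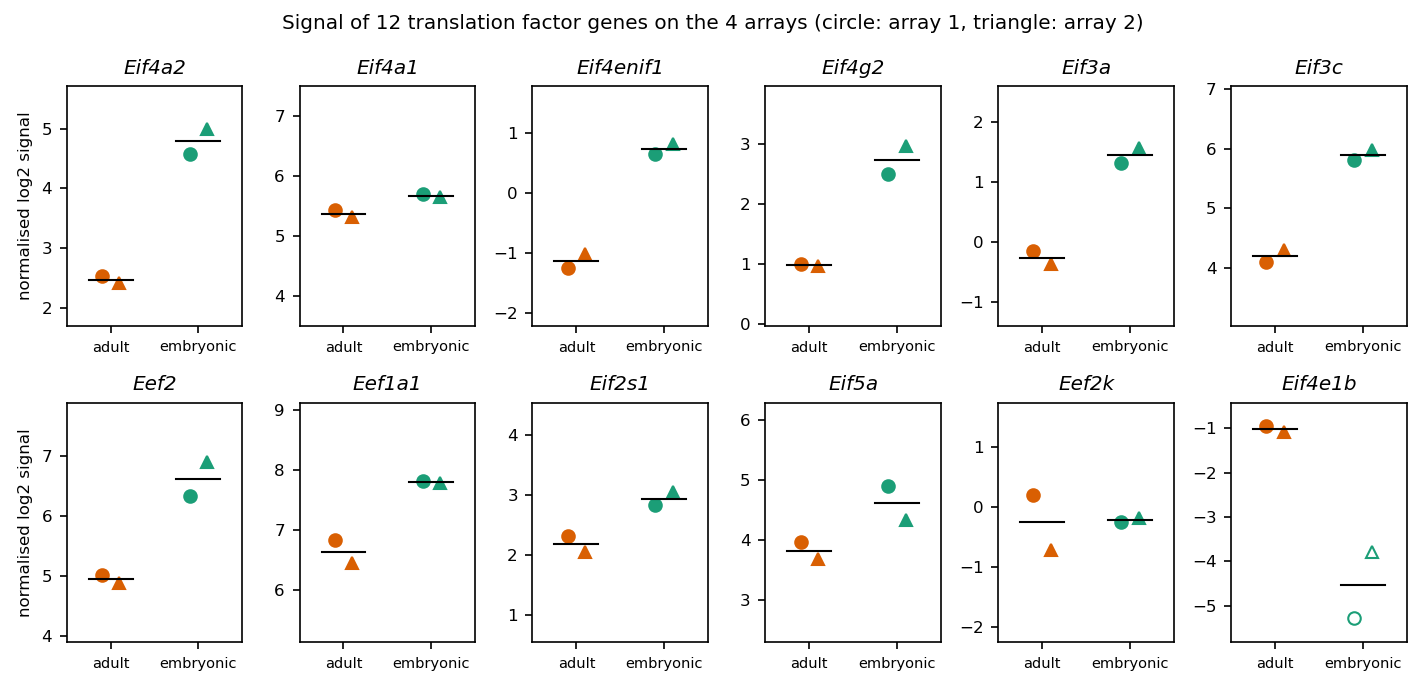
Normalised log2 signal of 12 translation factor genes on the 4 arrays, adult left and embryonic right in each panel, with circles for array 1, triangles for array 2, bars for group means and open symbols where the group was not well above background. Eif4a2 and Eif3c are separated widely, Eif4a1 narrowly, and the Eef2k groups overlap.

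Eif4e1b encodes a germ cell relative of the cap-binding protein. It had -0.96 and -1.09 in adult spheres, against -5.28 and -3.79 in embryonic spheres, where it was not well above background on either array. It passed the filter only through the adult arrays, so its direction was fixed by the filter and its call is no support for a difference. Set against the dimmest signal that counts as well above background, adult spheres had at least 2.70-fold more, a bound for this scaling. The limma fit (adjusted p = 0.00945) tests the difference from the dim embryonic signal itself and not this bound. A second Eif4e1b probe was not well above background on any array. Eef1a2, the elongation factor form of neurons and muscle, entered the test in the same way, with -2.29 and -0.86 in adult spheres, against -5.26 and -2.97 in embryonic spheres. Its rough bound was 1.84-fold, and limma did not call the gene (adjusted p = 0.0526). Such adult signal was also seen on probes for sensory receptor genes, where 51.4% and 23.2% of 1507 had signal well above background in adult spheres, against 6.10% and 2.26% in embryonic spheres. Of 330 sensory receptor genes tested, 280 were dim on both embryonic arrays and so entered the test only through the adult arrays, which fixed their direction. Of the 22 bright on every array 1 was called higher and 2 lower in adult spheres, with a median log2 difference of -0.40. The part of this signal in the Eif4e1b and Eef1a2 values was not tested.

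Transcripts of the proteins that hold eIF4E back were lower in adult spheres or not called. Eif4enif1, which encodes the transporter that takes eIF4E into the nucleus and into P-bodies, had -1.25 and -1.01 in adult spheres, against 0.65 and 0.82 in embryonic spheres. It was lower by a wide margin (-1.86, SE 0.31, adjusted p = 0.0107), also after centring (-1.21, adjusted p = 0.0408). Among the eIF4E-binding inhibitors, Eif4ebp2 (-1.28, SE 0.37, adjusted p = 0.0338) and Eif4ebp3 (-1.01, SE 0.31, adjusted p = 0.0396) were lower. Eif4ebp1 had 4.63 and 4.25 in adult spheres, against 5.83 and 4.84 in embryonic spheres, and its difference of -0.89 (adjusted p = 0.129) did not exceed the spread between the embryonic arrays.

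Of 14 genes of the eIF3 complex, the largest initiation factor, 12 were lower in adult spheres and none was higher, beside 43.8% and 2.36% of all bright genes. Their median log2 difference was -1.26, beside -0.97 for all bright genes. Eif3a, a core subunit, had -0.15 and -0.36 in adult spheres, against 1.33 and 1.57 in embryonic spheres (-1.70, SE 0.31, adjusted p = 0.0124). It was the only eIF3 gene still called after centring (-1.05, adjusted p = 0.0487), where 7.68% of all bright genes were called lower. Eif3c, another core subunit, had 4.11 and 4.31 in adult spheres, against 5.81 and 5.98 in embryonic spheres (-1.69, SE 0.31, adjusted p = 0.0123), and its second probe gave -1.72. Eif3f (-1.5, SE 0.35), Eif3i (-1.48, SE 0.37) and Eif3e (-1.41, SE 0.36) followed with adjusted p from 0.0193 to 0.024. The other subunits called, Eif3b, Eif3d, Eif3g, Eif3h, Eif3j1, Eif3l and Eif3m, lay between -1.28 and -1.0.

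Eif3k (-0.77, adjusted p = 0.136) and Eif3j2 (-0.01, adjusted p = 0.973) were the eIF3 genes not called. Eif3j1 and Eif3j2 encode close forms of the loosely bound j subunit, so each probe may also bind the other's transcripts. Eif3j1 had 0.54 and -0.27 in adult spheres, against 1.16 and 1.68 in embryonic spheres, whereas Eif3j2 had 1.41 and 1.56 in adult spheres, against 1.22 and 1.78 in embryonic spheres, where its groups overlap. The within-array log2 ratio of Eif3j2 to Eif3j1 was higher by 1.27 in adult spheres, and ranged from 0.67 to 1.75 over the 17 alternatives. This pair was picked after its values were seen.

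In the group of eIF2 and its exchange factor eIF2B, 1 of 8 genes was lower in adult spheres, namely Eif2b4 (-1.24, SE 0.32, adjusted p = 0.025). The median was -0.83, beside -0.97 for all bright genes, of which 43.8% were lower. Eif2s1, the alpha subunit that the stress kinases phosphorylate, had 2.31 and 2.03 in adult spheres, against 2.83 and 3.04 in embryonic spheres (-0.76, SE 0.32, adjusted p = 0.087). A dimmer Eif2s1 probe showed a wider gap (-2.01, adjusted p = 0.00985 over all named probes). Eif2b5, the catalytic subunit of eIF2B, had -0.98 (SE 0.37, adjusted p = 0.0657). In all 8 genes both adult arrays lay below both embryonic arrays, where 60.8% of all genes tested did so. That share takes in genes dim in embryonic spheres and was not counted for bright genes alone, so these bright genes have no like share beside them.

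Transcripts of the 3 measured kinases of eIF2-alpha in this set were each lower in adult spheres, beside 43.8% of all bright genes. Eif2ak3, the sensor of unfolded protein in the endoplasmic reticulum, had -0.17 and -0.31 in adult spheres, against 0.87 and 1.0 in embryonic spheres (-1.17, SE 0.30, adjusted p = 0.0255). Eif2ak1, the haem-regulated kinase, had a difference of -1.15 (SE 0.36, adjusted p = 0.0428) and Eif2ak4, the sensor of uncharged transfer RNA, one of -1.07 (SE 0.33, adjusted p = 0.0411). None was called after centring (adjusted p from 0.215 to 0.398).

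Among 8 genes for start codon selection and alternative initiator delivery, 3 were lower in adult spheres, beside 36.1% of all genes tested. Eif2a, which encodes an alternative carrier of initiator transfer RNA and not a subunit of eIF2, had -1.61 and -2.23 in adult spheres, against -0.10 and 0.64 in embryonic spheres. It was well above background on 1 adult array, and its difference of -2.18 (SE 0.42, adjusted p = 0.0131) was also called after centring (-1.53, adjusted p = 0.0409). Eif5, which triggers GTP hydrolysis at the start codon, had 2.59 and 2.36 in adult spheres, against 3.72 and 4.03 in embryonic spheres (-1.40, SE 0.32, adjusted p = 0.0188). Eif1, which guards start codon choice, was lower (-0.97, SE 0.32, adjusted p = 0.0467), while its close relative Eif1b had a nearly equal difference (-0.93, adjusted p = 0.0622) that missed the threshold. Eif1ax (-0.75, SE 0.38, adjusted p = 0.138) was not called, and its autosomal copy Eif1a had -0.85 (adjusted p = 0.06).

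Of eIF5A, eIF5B and eIF6 no gene was called by limma, and 0 had an unadjusted p under 0.05. Eif5a, which eases peptide bonds at proline runs and carries hypusine, had 3.96 and 3.68 in adult spheres, against 4.89 and 4.32 in embryonic spheres (-0.79, SE 0.35, adjusted p = 0.105). Its relative Eif5a2 had -0.75 (SE 0.32, adjusted p = 0.0904) and Eif6, which keeps free large subunits apart from small ones, -0.74 (SE 0.32, adjusted p = 0.0942). A p that misses the threshold does not show equal levels. In all 3 both adult arrays lay below both embryonic arrays, where 60.8% of all genes tested did so, a share not counted for bright genes alone. Their differences were smaller than the -0.97 of all bright genes. Eif5b, the subunit joining factor, was not tested because its only probe was well above background on adult array 1 alone, with -2.86 and -2.52 in adult spheres, against -5.39 and -3.32 in embryonic spheres.

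Elongation factor genes were lower in adult spheres in 3 of 7 cases, beside 36.1% of all genes tested. Eef2, the translocase, had 5.01 and 4.89 in adult spheres, against 6.33 and 6.90 in embryonic spheres (-1.66, SE 0.35, adjusted p = 0.0153). Eef1a1, the general eEF1A form, had 6.83 and 6.44 in adult spheres, against 7.81 and 7.79 in embryonic spheres (-1.16, SE 0.32, adjusted p = 0.0302), and its second probe gave -1.11. Eef1g, a subunit of the exchange factor for eEF1A, differed by -1.41 (SE 0.32, adjusted p = 0.019). The other exchange factor genes, Eef1b2 (-0.91, adjusted p = 0.129) and Eef1d (-0.65, adjusted p = 0.216), and Eef1e1 of the synthetase complex (-1.01, adjusted p = 0.0519) did not pass the test. None of these 6 genes was called after centring.

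Transcripts of the enzymes that modify elongation factors stood closer to 0. None of the 6 was called by limma and 0 had an unadjusted p under 0.05. Their median log2 difference was -0.25, beside -0.79 over all genes tested and -0.97 over all bright genes. Eef2k, the kinase that inactivates eEF2, had 0.21 and -0.72 in adult spheres, against -0.25 and -0.18 in embryonic spheres, so the adult arrays lay on both sides of the embryonic ones (-0.04, SE 0.41, adjusted p = 0.935). Eef1akmt2, a methyltransferase of eEF1A, was above in adult spheres on the probe used (0.31, adjusted p = 0.397), and its second probe gave -0.92. A second bright Eef2k probe gave 0.47. Within an array, Eef2k over Eef2 was a log2 ratio of -4.81 and -5.61 in adult spheres, against -6.58 and -7.08 in embryonic spheres, which was higher by 1.62 in adult spheres without overlap. This pair too was picked after its values were seen.

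Of 9 pairs listed, the within-array ratio did not overlap between groups in 3, namely Eif4a2 over Eif4a1, Eef1a2 over Eef1a1 with its dim embryonic signal, and Eif4e2 over Eif4e. The last was 2.50 and 2.26 in adult spheres, against 1.94 and 1.73 in embryonic spheres, a difference of 0.54. For Eif1b over Eif1, Eif5a2 over Eif5a, Eif1ax over Eif1a, Eif4g3 over Eif4g1, Eif4ebp2 over Eif4ebp1 and Eif4ebp3 over Eif4ebp1 the groups overlapped, with differences from -0.39 to 0.10. No test was made on these ratios. With 2 arrays against 2, a share of 0.333 of random orderings would not overlap, so the count of 3 of 9 is no evidence of a difference by itself.

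**Figure D4:**
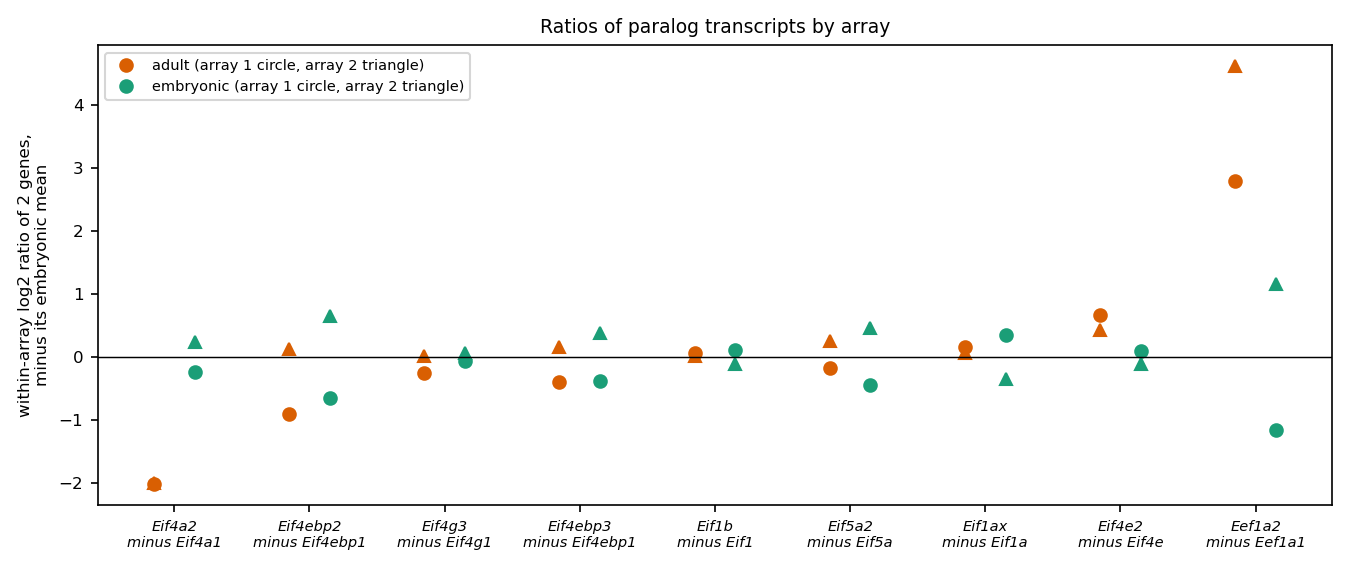
Log2 ratio of 2 paralogs within each array, drawn relative to its embryonic mean, for 9 pairs, with adult arrays left of embryonic arrays, circles for array 1 and triangles for array 2. The Eif4a2 to Eif4a1 ratio is lower by 2.01 in adult spheres, and 6 of the pairs overlap between the groups.

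Of 94 probes, 88 were tested one by one, and 43 were called lower and 1 higher in adult spheres, beside 36.4% and 16.6% of all 16673 named probes. In 21 genes more than 1 probe was tested, and in none were called probes of opposite direction. Calls of a gene and of its other probe parted in 7 genes. Besides Eif2s1 and Eif4e, described above, another probe was lower for Eif2b3 (-1.15, adjusted p = 0.0322 over all named probes) where the gene was not called (-0.90, adjusted p = 0.132), and another probe of Eif4b, Eif4g3 and Eif5 was not called where the gene was. They also parted for Eif1ad, whose dimmer probe was lower (-1.76, adjusted p = 0.0113 over all named probes) while the probe used was not called (-0.49, adjusted p = 0.277). Signal well above background was found for 97.9% and 89.4% of the translation factor probes on the adult arrays, against 93.6% and 91.5% on the embryonic arrays.

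Promoter sequence was looked at because many genes of this family carry binding letters for MYC-type factors or a terminal oligopyrimidine start, a run of C and T at the first base that ties translation of a messenger to mTOR. RefSeq promoter windows (GRCm38.p6, 250 bases before to 50 after the annotated start) were at hand for 52 of the 67 genes, in 67 windows. The E-box CACGTG, which reads the same on both strands, was in 16 of the 67 windows (23.9%), against 2349 of all 32851 windows (7.15%). By gene it was in 6 of the 26 called lower in adult spheres and in 8 of the other 25 tested. A C at the annotated start followed by 4 letters that are each C or T was found in 2 windows (3.0%), those of Eif3f and Eif2s3x, beside 2.51% of all windows. A run some bases away from the annotated start, like that at the end of the Eef2 run below, was not counted. No match therefore does not show that a gene lacks such a start. The C/EBP-ATF element TTGCATCA, searched on both strands, was in none of the 67 and in 0.895% of all windows. These are letter matches, not binding sites.

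The promoters of 4 members are shown, for an eIF3 subunit with a pyrimidine start, for eEF2, and for the 2 helicase paralogs that parted. Each run covers 250 bases before the annotated start and the first 20 after it, 5′ to 3′ on the gene's strand, in lower case. Capitals mark the E-box and, in Eif3f, the pyrimidine run at the annotated start. Eif3f lies on the plus strand at chr7:108934165-108934434, Eef2 on the plus strand at chr10:81176381-81176650, Eif4a2 on the plus strand at chr16:23107218-23107487 and Eif4a1 on the minus strand at chr11:69672404-69672673.
Eif3f: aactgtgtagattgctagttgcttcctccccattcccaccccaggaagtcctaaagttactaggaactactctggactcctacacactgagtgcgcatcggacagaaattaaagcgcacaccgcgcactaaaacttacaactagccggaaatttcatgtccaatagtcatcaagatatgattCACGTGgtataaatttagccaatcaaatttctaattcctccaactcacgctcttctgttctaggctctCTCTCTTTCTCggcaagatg
Eef2: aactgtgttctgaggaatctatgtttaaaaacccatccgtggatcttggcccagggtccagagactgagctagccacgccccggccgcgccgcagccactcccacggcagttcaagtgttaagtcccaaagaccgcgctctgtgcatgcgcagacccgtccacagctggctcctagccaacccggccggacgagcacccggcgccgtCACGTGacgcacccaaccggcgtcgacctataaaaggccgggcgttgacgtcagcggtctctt
Eif4a2: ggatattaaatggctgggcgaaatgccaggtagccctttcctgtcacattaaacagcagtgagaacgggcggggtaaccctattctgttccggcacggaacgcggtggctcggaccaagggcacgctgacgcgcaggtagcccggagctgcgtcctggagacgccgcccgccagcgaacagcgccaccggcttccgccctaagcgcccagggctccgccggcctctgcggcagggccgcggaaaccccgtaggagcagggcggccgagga
Eif4a1: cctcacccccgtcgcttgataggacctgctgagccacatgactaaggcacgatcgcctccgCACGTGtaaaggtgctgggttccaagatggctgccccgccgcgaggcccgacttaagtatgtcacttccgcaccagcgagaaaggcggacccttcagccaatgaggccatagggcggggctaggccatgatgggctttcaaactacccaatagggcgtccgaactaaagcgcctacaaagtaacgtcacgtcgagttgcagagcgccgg
The E-box began 68 bases before the annotated start in Eif3f, 43 before it in Eef2 and 189 before it in Eif4a1, and the Eif4a2 window held none. Eif3f, Eef2 and Eif4a2 were called lower in adult spheres and Eif4a1 was not.

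Other genes of the translation machinery had differences of like size, near the median of -0.97 of all bright genes. Of all genes tested 36.1% were called lower and 17.5% higher, and of all bright genes 43.8% and 2.36%. Of 85 genes tested with ribosomal protein symbols, 6 were lower in adult spheres and none was higher. Their median log2 difference of -1.05 was as far below 0 as that of the factors, but their embryonic arrays lay further apart. Their median standard error was larger (0.47, beside 0.33 for the factors). Their summed signal, scaled per array and not in log2, was 13510 and 10740 in adult spheres, against 35850 and 15990 in embryonic spheres. Embryonic array 2 thus lay much nearer the adult arrays than embryonic array 1 did. The embryonic medians of the factors, 2.88 and 2.96, lay close together. The symbols also took in Rps6kc1, Rps19bp1 and Rps23rg1, which are not ribosomal protein genes. Rps23rg1 was among the 6 called lower (-1.05, adjusted p = 0.0396). Of 19 cytosolic aminoacyl-tRNA synthetase genes, which charge transfer RNAs, 12 were lower and none higher (median -1.08), led by Iars (-2.18, SE 0.30, adjusted p = 0.00842). Among 4 termination and recycling genes 3 were lower, and Abce1, which splits ribosomes, had -1.49 (adjusted p = 0.0146). Of 8 mitochondrial translation factor genes 5 were lower and 1, the release factor gene Mtrf1, was higher (1.60, SE 0.37, adjusted p = 0.0195). The poly(A)-binding group had 3 of 5 lower, with a median of -1.0.

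In the mTOR and S6 kinase list 6 of 12 genes were lower and 2 higher in adult spheres, beside 36.1% and 17.5% of all genes tested. Rps6kb2, an S6 kinase gene well above background on 1 adult array, had -1.95 (adjusted p = 0.01), and lower with it were Mtor, Mlst8, Rps6kb1, Rptor and Tsc1. The 2 called higher were Deptor, which inhibits mTOR (1.75, adjusted p = 0.0191), well above background on 1 embryonic array, and Tsc2, a gene of the complex that restrains mTOR, which was dim on both embryonic arrays and entered the test only through the adult arrays. The list of targets of the integrated stress response, the programme that phosphorylated eIF2 sets off, had a median of -1.49 (all genes tested -0.79). Beside 36.1% of all genes tested, 9 of its 14 genes were lower and none was higher. The regulator Atf4 (-1.09, SE 0.35, adjusted p = 0.0437), the asparagine synthetase gene Asns (-1.52, SE 0.32, adjusted p = 0.0158) and the glutathione-degrading Chac1 (-2.33, SE 0.41, adjusted p = 0.0114) were among them, and after centring 3 of the 14 were still lower, namely Atf3, Chac1 and Phgdh. Atf4 and Asns lost their call there (adjusted p = 0.341 and 0.0803). Ddit3 (-0.43, adjusted p = 0.398) was not called.

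Of 9 thymic epithelial markers, 7 were lower and 1 was higher in adult spheres, beside 36.1% and 17.5% of all genes tested. The same shares stand beside the counts of the marker lists that follow. The summed signal of the epithelial markers, in units of the 75th percentile, was 202 and 114 in adult spheres, against 396 and 558 in embryonic spheres. Of 8 cell cycle genes 4 were lower (summed signal 13.8 and 11.98 in adult spheres, against 39.9 and 24.7 in embryonic spheres). Fibroblast markers had signal on every array, all 8 of them, with 2 lower and 1 higher in adult spheres and sums of 411 and 409.8 in adult spheres, against 781 and 452 in embryonic spheres. Of 6 macrophage markers tested 3 were lower (summed signal 74.99 and 105 in adult spheres, against 106 and 104 in embryonic spheres). Of 7 T lineage markers, 7 and 5 had signal well above background in adult spheres, against 3 and 3 in embryonic spheres, while their summed signal was 7.75 and 7.45 in adult spheres, against 9.73 and 11.6 in embryonic spheres. The 3 bright ones, Cd3e (-0.85), Cd4 (-0.68) and Lck (-0.73), were not called, and the 2 called higher, Cd3g and Ptcra, were dim on both embryonic arrays. Of 4 endothelial markers tested, 2 were called higher in adult spheres, Cdh5 and Esam, and none lower. The only B lineage and erythroid markers tested, Cd79b and Klf1, were called higher as well. All of these called markers were dim on both embryonic arrays and entered the test only through the adult arrays, which fixed their direction. The part of the markers of all these lists in the differences of the translation factors was not tested.

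**Figure D5:**
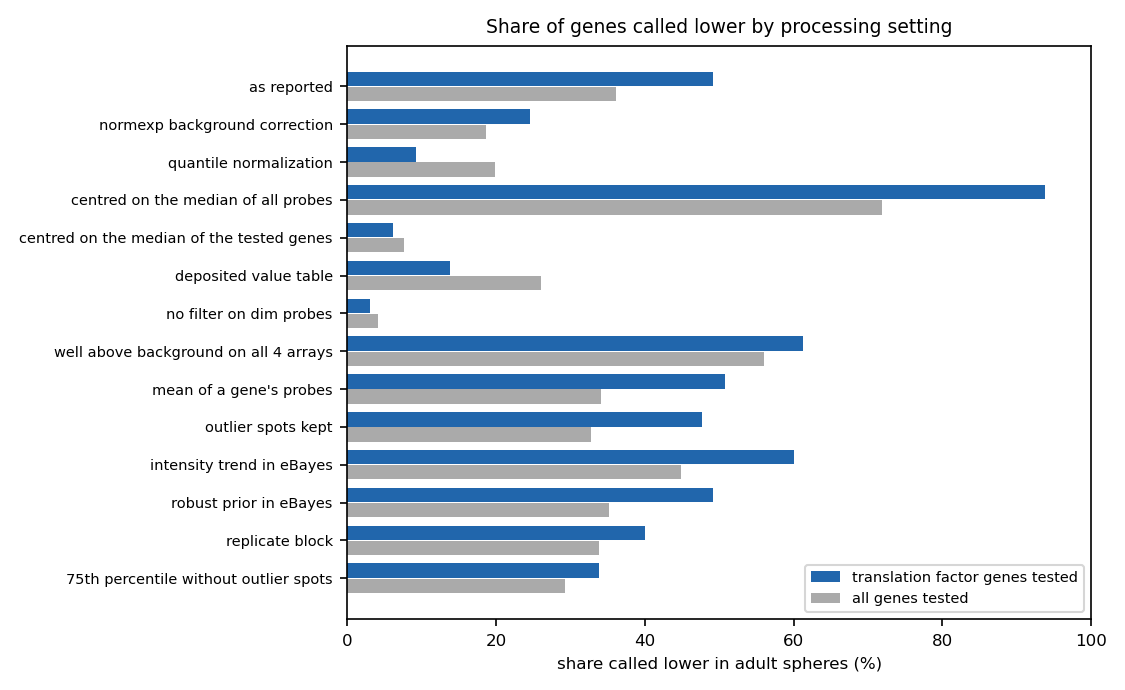
Share of genes called lower in adult spheres under each processing setting that keeps all 4 arrays, for the translation factor genes (blue) and all genes tested (grey). The blue bars run from 2.99% with no filter on dim probes to 93.8% with arrays centred on the median of all probes, where the grey bars stand at 4.05% and 71.9%.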

How the data were processed

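RNA of 4 thymosphere samples was labelled with Cy3 from 25 ng and read on 4 Agilent arrays. Per the file headers, the authors' deposited scanner files hold intensity values from Agilent Feature Extraction 10.7.3.1, background-subtracted and detrended within each array. The deposited value table holds linear intensity with medians of 34.4, 35.0, 35.7 and 35.1. The sources used here do not give its normalization, so its centring is unknown, and it served as an alternative only.

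Outlier spots (185 and 2756 on adult arrays 1 and 2, against 120 and 95 on embryonic arrays) and control spots were left out, no spot was saturated, and log2 signals were scaled to each array's 75th percentile (132 and 66.0 for adult, 126 and 61.5 for embryonic arrays). Spots well above background made up 71.6% and 49.6% on the adult arrays, against 48.3% and 35.7% on the embryonic arrays. Probes were named through RefSeq accessions of GRCm38.p6, used for names and promoters (28026 of 55681 probes, 50.3%). Each gene stood by its brightest probe. Adult minus embryonic was fitted with limma 3.58.1 in R 4.3.3, without covariates, and p was adjusted by Benjamini-Hochberg over 13667 genes. The code was tested on simulated data. Array position on the slide and group cannot be told apart. A probe dim in 1 group has a rough lower bound, its bright mean over, per array, the higher of its own signal and the lowest signal well above background.

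Normexp (offset 50) used the spot's median signal, as the files hold no mean signal. Members, lists and pairs were chosen with earlier results of these data known. The rule for named genes took the 8 called members with the lowest and the highest differences, those with only a bound, and 26 listed genes. Members outside it were named after their values were seen. Protein sequences were not used here. Other alternatives were quantile normalization, 2 centrings, other filters, probe means, other priors, the replicate block and leaving out each array.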

Additional observations from a re-analysis of the deposited data

How the results depend on the processing

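The 32 members lower and 1 higher in adult spheres, the median of -0.98 and the 4939 and 2393 genes of the array changed with the scaling and the filter. With the replicate number as a block 26 members were lower and 2 higher, and 4627 and 2415 genes, while the deviations of same-numbered arrays correlated at 0.07, so the numbers are not taken to pair the samples. With normexp background correction 16 members were lower and 0 higher (median -0.69), and 2545 and 833 genes. With quantile normalization 6 members were lower and 3 higher (median -0.32), and 2706 genes lower (42.5% of calls higher, beside 32.6%). Centring on all probes gave 61 members lower (median -2.17) and 9831 genes lower (14.7% of calls higher), and centring on the tested genes 4 lower and 2 higher (median -0.33) and 1046 genes lower (72.6% higher). On the authors' deposited values 9 members were lower and 2 higher (median -0.31), and 3551 and 1943 genes (median -0.28). Members were called lower less often than all genes there (13.8% against 26.0%), under quantile normalization (9.23% against 19.8%), centred on the tested genes (6.15% against 7.65%) and with no filter (2.99% against 4.05%), where the reported fit has 49.2% against 36.1%; these differences were not tested. With no filter 2 members and 857 genes were lower, of 21151 genes tested (66.3% of calls higher), and when every array had to show signal 0 members and 329 genes were higher (5.75%). With the 75th percentile taken without outlier spots, an alternative chosen after seeing the data, the median was -0.84 and 22 members were lower. Leaving out 1 array at a time gave 0 to 26 members lower, 0 to 2 higher, medians of -1.12 to -0.79, and 0 to 4726 genes lower and 0 to 2644 higher. The 0 calls came without either adult array, and without embryonic array 2 there were 12 members and 3109 genes lower. A set of 3 arrays leaves 1 array in a group, which is assumed to vary like the other group. The cause of these changes was not tested. Of 1102 differences of single members over 17 alternatives, 746 kept direction and call, 240 lost a call, 58 gained one and 58 changed sign. No member called in the reported fit changed sign. The sign changes, as log2 differences, were these. Under quantile normalization: Eef1akmt1 0.02, Eef1akmt4 0.62, Eef1d 0.18, Eef2k 0.56, Eif1a 0.01, Eif1ad 0.40, Eif1ax 0.11, Eif2b1 0.02, Eif2s1 0.10, Eif2s2 0.27, Eif3j2 0.72, Eif3k 0.06, Eif4a1 0.49, Eif4a3l1 0.04, Eif4e2 0.33, Eif5a 0.02 and Eif6 0.08. With the deposited table: Eef1akmt1 0.10, Eef1akmt4 0.45, Eef1d 0.32, Eef2k 0.21, Eif1a 0.11, Eif1ad 0.43, Eif1ax 0.19, Eif2b2 0.05, Eif2s1 0.15, Eif2s2 0.18, Eif3j2 0.45, Eif3k 0.00, Eif4a1 0.54, Eif4a3l1 0.06, Eif4e2 0.26, Eif4ebp1 0.07 and Eif6 0.11. Centred on the tested genes: Eef1akmt4 0.49, Eef1aknmt 0.32, Eef1d 0.00, Eef2k 0.62, Eif1ad 0.17, Eif2s2 0.16, Eif3j2 0.64, Eif4a1 0.37 and Eif4e2 0.11. Centred on all probes: Eef1akmt2 -0.87 and Eif4a3 -0.74. As the mean of a gene's probes: Eef1akmt2 -0.30 and Eef2k 0.21. With normexp: Eef2k 0.04. With the percentile without outlier spots: Eef2k 0.10 and Eif3j2 0.13. Leaving out 1 array at a time gave Eef1akmt4 values of -0.47 to 0.13 and Eif3j2 values of -0.29 to 0.27. Without adult array 1: Eef2k 0.45 and Eif3j2 0.06. Without adult array 2: Eef1akmt4 0.09 and Eef2k 0.42. Without embryonic array 1: Eef1akmt4 0.13 and Eef2k 0.61. Without embryonic array 2: Eef2k 0.32 and Eif3j2 0.27. Signal over background limits Eif4e1b, Eef1a2, Eif4e3 and Eif5b, for which neither embryonic array had signal well above background.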
